A study of Mus musculus with 18 samples.

Results

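The genes Dlg2, Dlg3, Dlg4, Shank1, Shank2, Shank3, Dlgap1, Dlgap3 and Dlgap4 encode scaffold proteins of the postsynaptic density, and were taken by name as 9 of the 15329 genes measured in mouse hippocampus. All 9 were listed in every library. The postsynaptic density is the protein mesh beneath the membrane of an excitatory synapse. In it the MAGUK proteins of the Dlg family hold glutamate receptors and their partners by PDZ domains, the Dlgap proteins (also called SAPAP or GKAP) bind the MAGUKs, and the Shank proteins bind the Dlgap proteins and reach down to Homer and the actin cytoskeleton. The Dlg, Dlgap and Shank layers therefore form a chain from the receptor to the spine's skeleton, and changes at excitatory synapses are widely studied in spatial learning.

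Hippocampal RNA was sequenced from C57BL/6J mice of 8 to 10 weeks that were wild type (WT) or Ccny knockout (KO). Ccny encodes cyclin Y. Mice of each genotype were untrained (Basal), had been through original learning (OL) in a water maze, in which a hidden platform is found from its place, or had gone on to reversal learning (RL), in which the platform is moved. The 6 groups, WT_Basal, KO_Basal, WT_OL, KO_OL, WT_RL and KO_RL, held 3 mice each, 18 libraries in all. The knockout allele is that of all KO mice, trained or not, and how it was made, which exons it lacks and whether it acts in all tissues are not given in the sources used here.

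Each library held between 29248557 and 37915576 reads on the listed genes. No untrained library held more than 31509208 reads and no trained library fewer than 31830344. The number of reads on listed genes and training therefore cannot be told apart in this design. The study's counts of sequenced reads per library overlapped between untrained and trained mice. Ccny lay between 107 and 158 CPM (read counts scaled to a common library total) in the 9 WT mice and between 74.0 and 95.8 CPM in the 9 KO mice, with no overlap. Over the 3 training states Ccny was 0.72 lower in KO mice on the log2 scale (adjusted p = 3.3e-05), so Ccny reads were reduced and not absent in the KO libraries. The markers of hippocampal excitatory neurons, 10 of 10 listed and all above 0, summed to between 5659 and 7590 CPM in every library. Markers of choroid plexus epithelium, a tissue that borders the hippocampus, summed to between 41.0 and 8278 CPM, and markers of hypothalamic neurons reached 101 CPM in 1 KO_Basal mouse against at most 11.2 CPM in the mice of the other 5 groups.

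Promoter sequences from RefSeq are shown for 4 scaffold genes, as the letters upstream of 2 members that rose after training and of 2 that did not pass the test. Each is the 250 bases before an annotated start on the forward strand of GRCm38.p6. Capitals mark matches on either strand to the cAMP response element TGACGTCA, the EGR1 motif GCGTGGGCG, the E-box CACGTG or the SP1 motif GGGCGG, and overlapping matches run together. The first is Dlgap4 at chr2:156720715-156720964, the next Dlgap3 at chr4:127172630-127172879, then Shank3 at chr15:89499358-89499607 and Dlgap1 at chr17:70561497-70561746.
Dlgap4: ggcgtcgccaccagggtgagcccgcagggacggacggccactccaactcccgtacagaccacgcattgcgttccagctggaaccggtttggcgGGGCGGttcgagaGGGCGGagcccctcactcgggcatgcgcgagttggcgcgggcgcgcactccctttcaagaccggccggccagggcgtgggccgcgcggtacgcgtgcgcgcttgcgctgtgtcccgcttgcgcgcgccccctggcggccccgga
Dlgap3: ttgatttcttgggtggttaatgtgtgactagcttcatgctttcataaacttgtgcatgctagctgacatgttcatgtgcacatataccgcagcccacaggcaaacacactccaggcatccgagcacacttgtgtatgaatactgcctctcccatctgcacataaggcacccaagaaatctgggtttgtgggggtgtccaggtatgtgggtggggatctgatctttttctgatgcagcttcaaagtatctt
Shank3: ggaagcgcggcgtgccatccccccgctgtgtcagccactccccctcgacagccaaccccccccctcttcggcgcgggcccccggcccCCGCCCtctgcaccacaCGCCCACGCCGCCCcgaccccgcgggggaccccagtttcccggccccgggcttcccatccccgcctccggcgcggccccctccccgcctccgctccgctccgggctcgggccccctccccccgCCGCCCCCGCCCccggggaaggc
Dlgap1: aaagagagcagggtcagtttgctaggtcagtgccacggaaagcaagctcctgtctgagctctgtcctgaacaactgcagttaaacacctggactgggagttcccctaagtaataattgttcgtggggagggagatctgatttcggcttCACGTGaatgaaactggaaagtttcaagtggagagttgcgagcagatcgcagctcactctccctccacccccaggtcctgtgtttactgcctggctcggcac
The Dlgap4 sequence had 2 SP1 matches, 74% GC and 37 CG dinucleotides. The Dlgap3 sequence had no match to any of the 4 motifs, 46.8% GC and 2 CG dinucleotides. A link between these motifs and the changes after training was not tested. The Shank3 sequence, at 82.4% GC, had 4 SP1 matches and 1 EGR1 match, which overlaps an SP1 match. Of the 2 Dlgap1 windows, the one shown was chosen because it held a match, 1 E-box, and the other, at chr17:69968823-69969072, held none of the 4 motifs. Among all 32851 promoter windows of this length, 32.7% held the SP1 motif, 6.02% the E-box, 1.55% the cAMP response element and 0.536% the EGR1 motif. Windows were present for 7 of the 9 members, Shank1 and Shank2 not among them, and the 13 windows of the 7 genes held no cAMP response element.

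Per kilobase of its longest annotated transcript, the level of Dlg4, which encodes PSD-95, was the highest of the 9 in untrained WT mice at 118 ± 8.0 CPM per kb (SD, n = 3). Dlgap1 followed at 93.6 ± 5.4 CPM per kb and Dlg2, which encodes PSD-93, at 58.0 ± 1.3. Dlgap3 at 50.8 ± 3.5 and Dlg3, which encodes SAP102, at 49.96 ± 2.2 did not differ beyond their spread. Dlgap4 at 39.8 ± 4.0 and Shank3 at 36.5 ± 3.2 did not do so either. Shank1 at 24.5 ± 3.6 and Shank2 at 12.9 ± 0.78 CPM per kb were lowest, so in untrained mice each Shank gene stood below each Dlg and Dlgap gene in mean level per length.

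After training, Shank1 and Shank2 were higher in both genotypes, Dlgap3 and Dlgap4 were higher in 3 of 4 comparisons each, and no member passed as lower. Each trained group was compared with the untrained mice of its genotype with limma, fitted to all 15329 genes in the 18 libraries, with Benjamini-Hochberg adjustment over all genes and a threshold of 0.05. The OL and RL comparisons of a genotype share their 3 untrained mice, and in bulk tissue fewer cells of a type and less RNA per cell cannot be told apart. After original learning, 3 of 9 members passed in WT mice, where 9.5% of all genes passed and 3.88% passed and were higher. In KO mice 4 of 9 passed, against 23.5% of all genes, 11.2% higher. After reversal learning, 3 of 9 passed in WT mice, against 15.7% of all genes, 8.28% higher, and 4 of 9 in KO mice, against 23.6% of all genes, 11.6% higher. After original learning the median log2 change of the 9 members was 0.24 in WT and 0.27 in KO mice, and after reversal 0.16 and 0.22, with the median of all genes between -0.01 and 0.00.

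**Figure D1:**
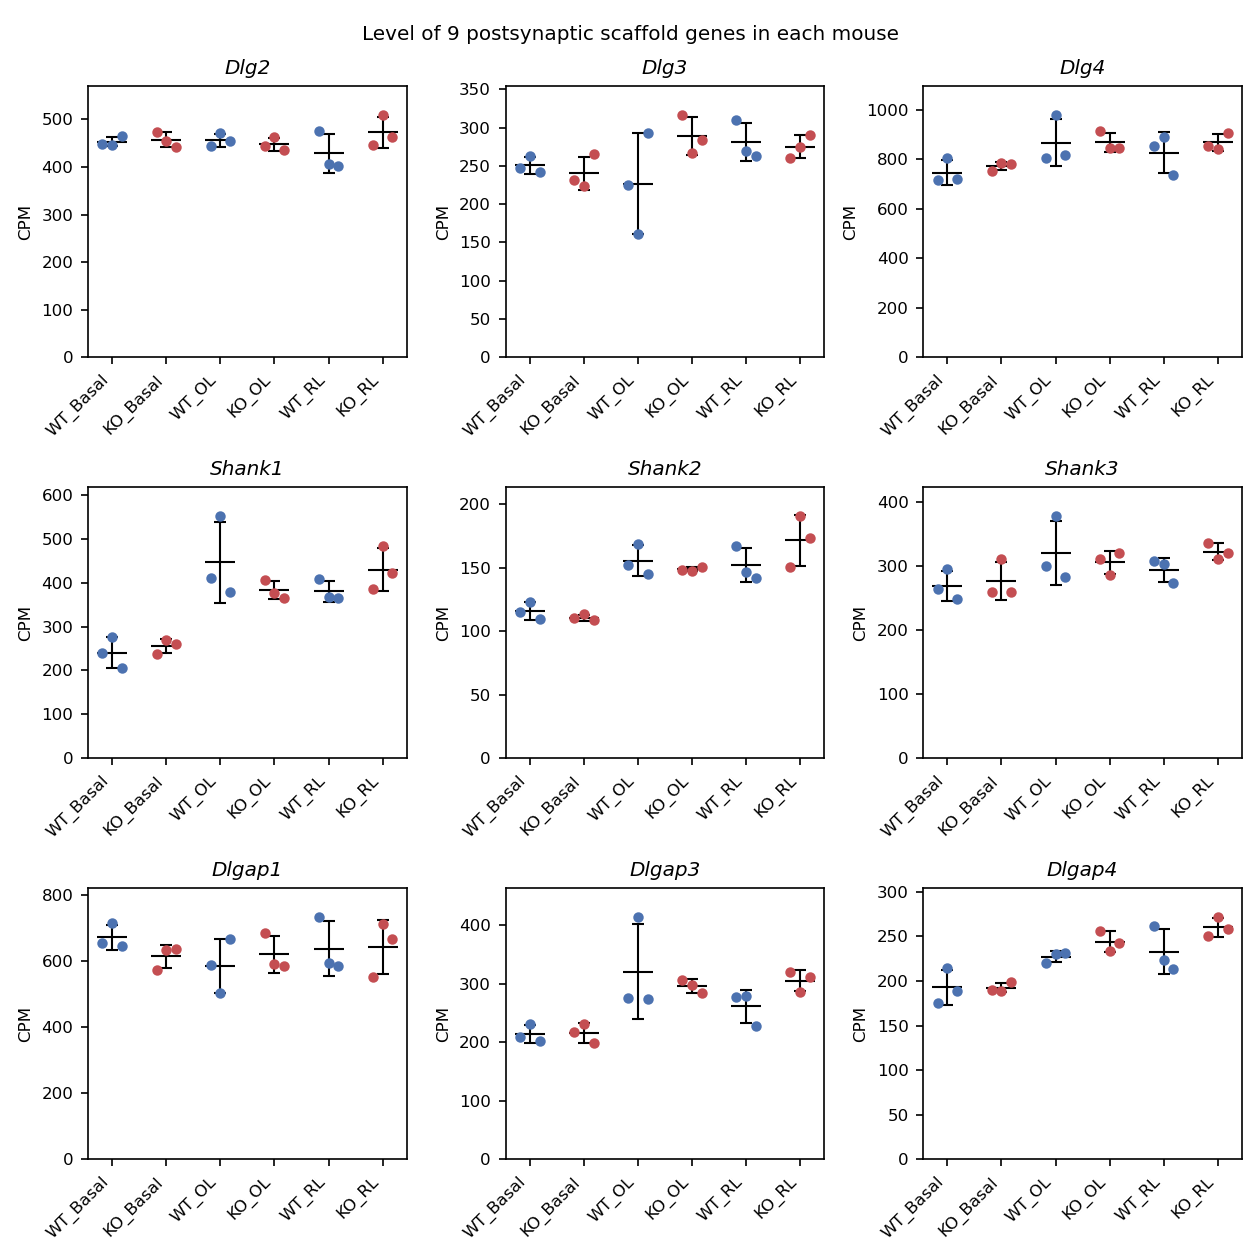
CPM of the 9 scaffold genes (vertical axes, from 0) in each mouse by group, WT in blue and KO in red, with black bars for the mean and SD of 3 mice. Shank1 and Shank2 have all 12 trained mice above all 6 untrained mice, while Dlg2 and Dlgap1 overlap throughout.

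Shank1, a master scaffold found at excitatory synapses (chromosome 7, 44310253 to 44360572, mm10), rose furthest. Its level was 239, 276 and 205 CPM in the WT_Basal mice and 237, 269 and 260 CPM in the KO_Basal mice. It was 411, 551 and 378 CPM in WT_OL and 406, 377 and 365 CPM in KO_OL. It was 408, 367 and 366 CPM in WT_RL and 386, 483 and 421 CPM in KO_RL. The lowest trained mouse thus stood at 365 CPM and the highest untrained mouse at 276 CPM. The rise was 1.84-fold in WT_OL (log2 0.88 ± 0.13, SE; adjusted p = 0.000992), 1.5-fold in KO_OL (0.58 ± 0.13; adjusted p = 0.00446), 1.59-fold in WT_RL (0.67 ± 0.13; adjusted p = 0.00304) and 1.68-fold in KO_RL (0.75 ± 0.13; adjusted p = 0.000857). Without the second WT_OL mouse, the highest of all, the WT_OL change was 0.72 (adjusted p = 0.00245). Shank1 exons overlap those of 1700008O03Rik on the other strand, and the strand setting of the counting is not given in the sources used here, so reads of the pair cannot be told apart.

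Shank2, its paralogue (chromosome 7, 144001928 to 144424494), moved in step with Shank1. It was 115, 123 and 109 CPM in WT_Basal and 111, 113 and 108 CPM in KO_Basal. It was 152, 169 and 145 CPM in WT_OL, 148, 147 and 150 CPM in KO_OL, 167, 147 and 142 CPM in WT_RL and 151, 191 and 173 CPM in KO_RL. Here too every trained mouse was above every untrained mouse. The log2 change was 0.42 ± 0.09 in WT_OL (adjusted p = 0.00708), 0.42 ± 0.09 in KO_OL (adjusted p = 0.00253), 0.38 ± 0.09 in WT_RL (adjusted p = 0.00725) and 0.62 ± 0.09 in KO_RL (adjusted p = 0.000154). Across the 18 libraries the log2 levels of Shank1 and Shank2 had a Pearson r of 0.94, and of 0.82 once each group's mean was removed. Both are given as descriptions of libraries that share trends in reads on listed genes and in base composition.

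Shank3 (chromosome 15, 89499623 to 89560261), whose loss in humans is tied to Phelan-McDermid syndrome, did not pass in any comparison. It was 263, 295 and 248 CPM in WT_Basal, 260, 311 and 259 CPM in KO_Basal, 300, 378 and 283 CPM in WT_OL and 311, 285 and 320 CPM in KO_OL. After reversal it was 307, 302 and 273 CPM in WT mice and 336, 310 and 320 CPM in KO mice. Trained and untrained mice overlapped in all 4 comparisons. Its log2 change lay between 0.13 (95% interval -0.09 to 0.36, WT_RL) and 0.24 (0.02 to 0.47, WT_OL), with adjusted p between 0.136 and 0.433. Its exons overlap Gm15609 on the other strand.

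Of the Dlgap family, Dlgap3 (SAPAP3, whose loss in mice gives compulsive grooming; chromosome 4, 127169204 to 127237022) was 209, 230 and 202 CPM in WT_Basal and 217, 231 and 198 CPM in KO_Basal. It was 275, 413 and 273 CPM in WT_OL, 306, 298 and 284 CPM in KO_OL, 277, 279 and 228 CPM in WT_RL and 319, 285 and 311 CPM in KO_RL. Only the WT_RL group overlapped its untrained mice, through 1 mouse. The log2 change was 0.56 ± 0.13 in WT_OL (adjusted p = 0.0131), 0.46 ± 0.13 in KO_OL (adjusted p = 0.0174) and 0.50 ± 0.13 in KO_RL (adjusted p = 0.0108), and the WT_RL value of 0.28 ± 0.13 did not pass (adjusted p = 0.149). The second WT_OL mouse was again the highest, and without it the WT_OL change was 0.36 (adjusted p = 0.0327). Leaving out the first or the third WT_Basal mouse ended the WT_OL call, with adjusted p of 0.0516 and 0.0629. The same held for KO_OL without the third KO_Basal mouse (adjusted p = 0.0669) or the first KO_OL mouse (adjusted p = 0.0614).

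Dlgap4 (chromosome 2, 156613705 to 156764363) was 176, 214 and 189 CPM in WT_Basal and 190, 189 and 199 CPM in KO_Basal. It was 220, 230 and 231 CPM in WT_OL, 257, 234 and 242 CPM in KO_OL, 261, 224 and 214 CPM in WT_RL and 250, 272 and 259 CPM in KO_RL. WT_RL overlapped WT_Basal narrowly, at 214 CPM, and the other trained groups did not overlap theirs. The log2 change was 0.34 ± 0.08 in KO_OL (adjusted p = 0.00719), 0.27 ± 0.08 in WT_RL (adjusted p = 0.0343) and 0.43 ± 0.08 in KO_RL (adjusted p = 0.0016), with 0.24 ± 0.08 in WT_OL (adjusted p = 0.0768). The WT_RL value did not pass without the first or the third WT_Basal mouse or the first or the second WT_RL mouse, with adjusted p between 0.0554 and 0.164, and the WT_OL value passed without the second WT_Basal mouse (adjusted p = 0.0379). Its exons overlap 4930405A21Rik on the other strand.

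Dlgap1 (GKAP; chromosome 17, 69969073 to 70821413) did not pass in any comparison. It ranged from 574 to 716 CPM in the 6 untrained mice and from 502 to 733 CPM in the 12 trained mice, so the trained mice spanned more than the range of the untrained mice. Its log2 change was -0.20 (95% interval -0.46 to 0.05) in WT_OL, 0.01 (-0.24 to 0.27) in KO_OL, -0.08 (-0.34 to 0.17) in WT_RL and 0.06 (-0.19 to 0.32) in KO_RL. Its exons overlap AC079441.1 on the other strand.

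None of the 3 Dlg genes passed after training. Dlg4, the most abundant MAGUK here (chromosome 11, 70016942 to 70047522), was 716, 805 and 720 CPM in WT_Basal, 755, 785 and 780 CPM in KO_Basal, 806, 980 and 820 CPM in WT_OL and 915, 848 and 846 CPM in KO_OL. It was 855, 892 and 736 CPM in WT_RL and 856, 843 and 909 CPM in KO_RL. All trained groups but WT_RL lay above their untrained mice, by margins that did not pass: the log2 change was 0.21 (95% interval 0.02 to 0.41; adjusted p = 0.157) in WT_OL, 0.17 (-0.03 to 0.36) in KO_OL, 0.15 (-0.05 to 0.34) in WT_RL and 0.17 (-0.03 to 0.36) in KO_RL. Dlg2 (chromosome 7, 90476672 to 92449247) was the steadiest member, at 443 to 474 CPM in untrained mice and 402 to 509 CPM in trained mice. Its log2 change lay between -0.08 (95% interval -0.24 to 0.07, WT_RL) and 0.05 (-0.11 to 0.20, KO_RL). Dlg2 exons overlap those of Gm45131 and Gm45159 on the same strand.

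Dlg3 (chromosome X, 100767722 to 100818410) varied most in 1 group. It was 247, 263 and 242 CPM in WT_Basal but 224, 162 and 293 CPM in WT_OL, with the lowest and one of the highest WT values in the same group. The KO mice had 232, 224 and 265 CPM untrained, 316, 267 and 284 CPM after original learning and 260, 275 and 290 CPM after reversal, and WT_RL mice had 309, 270 and 263 CPM. The log2 change was -0.19 (95% interval -0.50 to 0.13) in WT_OL, 0.27 (-0.05 to 0.58) in KO_OL, 0.16 (-0.15 to 0.47) in WT_RL and 0.20 (-0.12 to 0.51) in KO_RL. The WT_OL value turned on single mice: it was 0.03 (adjusted p = 0.906) without the second mouse and -0.39 (adjusted p = 0.0385) without the third.

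By overlap alone, 5 of 9 members had all WT_OL mice above all WT_Basal mice, where 28.3% of all genes did not overlap in either direction. The count was 6 of 9 in KO_OL against 48.8% of all genes, 3 of 9 in WT_RL against 34.3% and 5 of 9 in KO_RL against 45.3%.

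The base composition of the libraries moved with training. Over the 9012 genes with a mean log2 value of 4 or more, the trend of a library's log2 values with GC content lay between -0.19 and -0.11 per 10 percentage points of GC in the 6 untrained mice and between -0.02 and 0.21 in the 12 trained mice. The second WT_OL mouse had the steepest trend, 0.21, and the most negative trend with transcript length, -0.22 per doubling. The members' longest transcripts run from 44.3% GC in Dlg2 to 63.9% GC in Dlgap3, 7 of 9 of them above the 49.8% median of all genes. Over the 9 members, GC content and log2 change had an r between 0.63 and 0.69 in the 4 comparisons, a description over genes that are not independent. The length trend per doubling lay between -0.098 and -0.002 in KO_Basal, 0.012 and 0.038 in KO_OL, and 0.028 and 0.144 in KO_RL. In WT mice the groups overlapped, at -0.031 to 0.010 in WT_Basal, -0.224 to 0.077 in WT_OL and -0.083 to 0.101 in WT_RL. The GC trend and training cannot be told apart in this design, nor can the length trend and training in KO mice. The values after removing the GC trend from each library are given for each member.

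**Figure D2:**
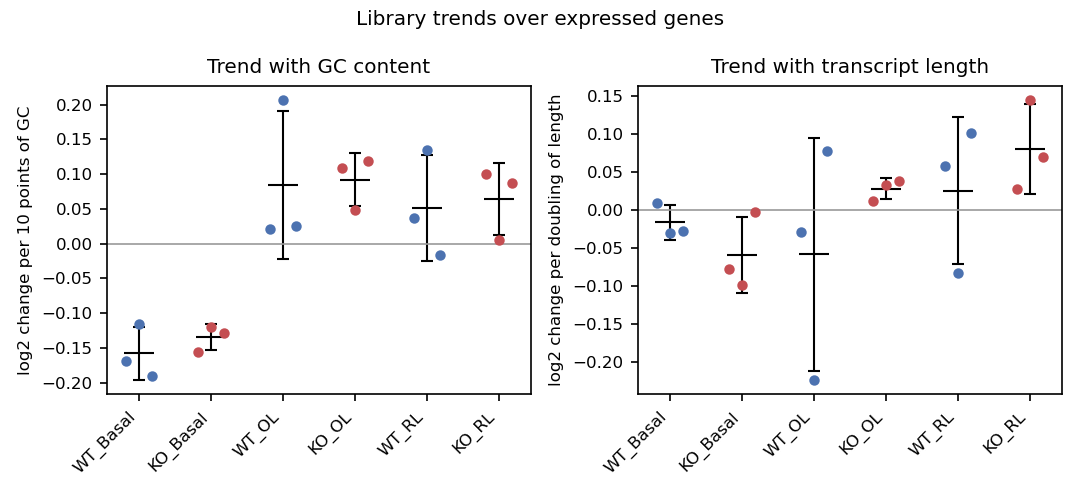
Slope of each library's deviation from the mean library on GC content (left, log2 per 10 percentage points of GC) and on transcript length (right, log2 per doubling), by group, with black bars for the mean and SD of 3 mice. The 6 untrained mice lie between -0.19 and -0.11 on the left and the 12 trained mice at -0.02 or more.

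After removal of the GC trend Shank1 still passed in all 4 comparisons, with log2 changes of 0.67 in WT_OL (adjusted p = 0.00373), 0.39 in KO_OL (adjusted p = 0.0227), 0.49 in WT_RL (adjusted p = 0.0127) and 0.57 in KO_RL (adjusted p = 0.00278). Shank2 passed in KO_OL at 0.27 (adjusted p = 0.0328) and KO_RL at 0.49 (adjusted p = 0.00126), and its WT values of 0.29 and 0.23 did not pass. Dlgap3 at 0.32 (adjusted p = 0.0258) and Dlgap4 at 0.26 (adjusted p = 0.018) passed in KO_RL alone. The other changes of Dlgap3 were 0.31 in WT_OL, 0.25 in KO_OL and 0.09 in WT_RL, and those of Dlgap4 0.05, 0.16 and 0.10. Shank3 lay between -0.05 and 0.05. The members that were not called before stayed uncalled: Dlg4 lay between 0.14 and 0.28, Dlg2 between -0.01 and 0.15, Dlg3 between -0.21 and 0.18 and Dlgap1 between -0.24 and -0.02. With the trend in transcript length removed as well, Shank1 in WT_OL was the only call, at 0.69 (adjusted p = 0.0128), and its other changes were 0.22 in KO_OL, 0.39 in WT_RL and 0.32 in KO_RL. The 4 comparisons thus had 1, 2, 1 and 4 calls after the GC step and 1, 0, 0 and 0 calls after both steps. Among all 15220 genes with a known GC content, 377, 2534, 1188 and 2855 were called after the GC step. After both steps 612, 2264, 1331 and 1980 were called, against 1457, 3600, 2407 and 3612 of 15329 genes as deposited.

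**Figure D3:**
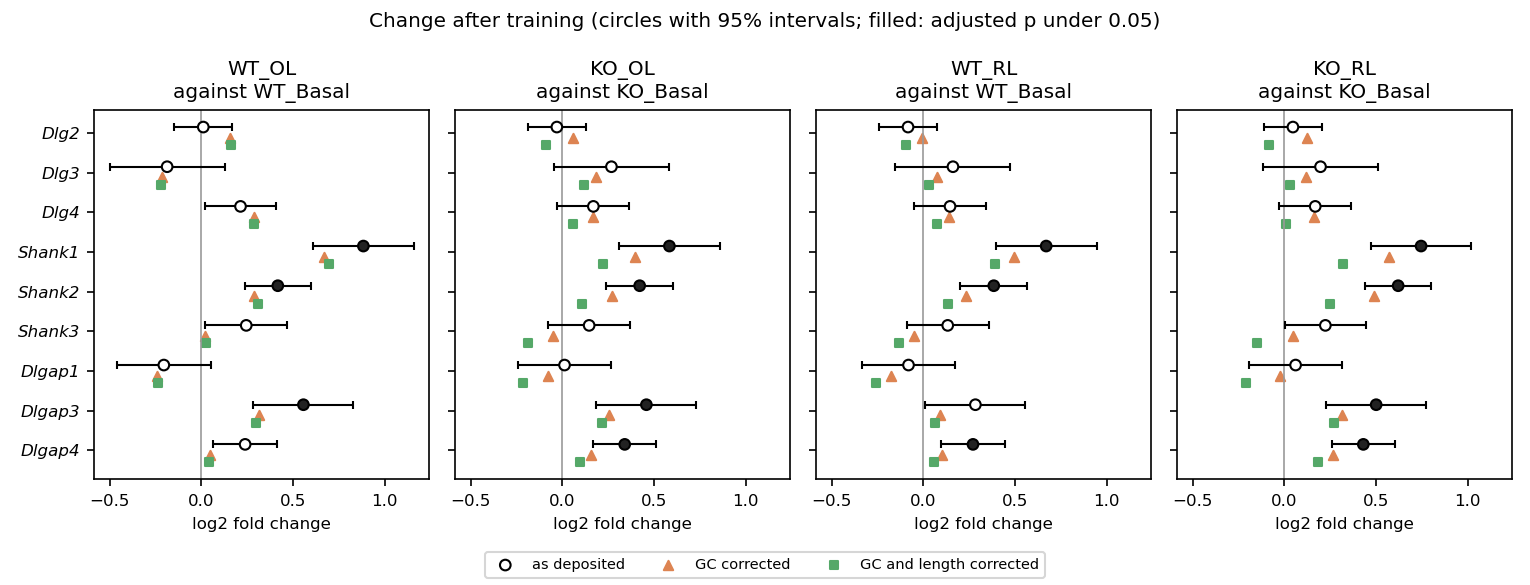
Log2 fold change of each member (rows) against untrained mice of the same genotype in 4 panels, with circles and 95% intervals for the deposited values, filled where the adjusted p was under 0.05, triangles after GC correction and squares after GC and length correction. Shank1 lies to the right of 0 on all 3 scales in all 4 panels, from 0.22 to 0.88, and Shank3 falls to near 0 after the GC step.

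Shank1 and Shank3 have nearly the same GC content, 61.4% and 62.4%, so their ratio within a mouse was taken as a further description, chosen after the values were seen and given with no test. The log2 ratio of Shank1 to Shank3 was -0.17 ± 0.09 (SD, n = 3) in WT_Basal and -0.11 ± 0.11 in KO_Basal. After original learning it was 0.47 ± 0.07 in WT and 0.33 ± 0.12 in KO mice, and after reversal 0.37 ± 0.08 in WT and 0.41 ± 0.22 in KO mice. The lowest trained mouse was at 0.19 and the highest untrained mouse at 0.0034, so trained and untrained mice did not overlap. The log2 ratio of Dlgap3 to Shank3, at 63.9% and 62.4% GC, ranged from -0.43 to -0.26 in untrained mice and from -0.26 to 0.13 in trained mice. These ranges overlapped narrowly. The ratio of Shank2 to Shank3 ranged from -1.46 to -1.18 and from -1.16 to -0.70.

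**Figure D4:**
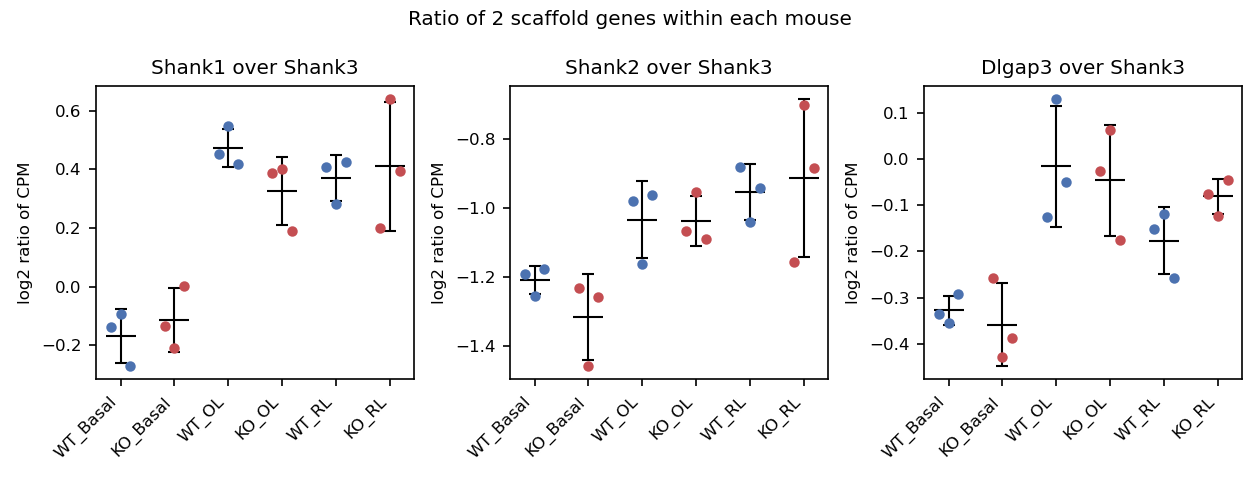
Log2 ratio of the CPM of Shank1, Shank2 and Dlgap3 to that of Shank3 within each mouse (points), by group, with black bars for the mean and SD of 3 mice. In the left panel the 12 trained mice lie between 0.19 and 0.64 and the 6 untrained mice between -0.27 and 0.0034.

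Other tissues varied beside these changes. The choroid plexus sum, over 5 of 5 markers, was 43.3 to 654 CPM in KO_Basal against 2361 to 4568 CPM in KO_OL and 1305 to 4930 CPM in KO_RL, and 840 to 4277 CPM in WT_Basal against 1844 to 3245 CPM in WT_OL and 41.0 to 8278 CPM in WT_RL. All 5 choroid plexus markers were called higher in KO_OL and in KO_RL, and none was called in WT_OL or WT_RL. The choroid plexus marker with the widest range, Ttr, went from 12.2 to 7685 CPM over the libraries. Of 4 microglial markers, 2 were called higher and 1 lower in WT_OL and in WT_RL, 1 lower in KO_OL and 2 lower in KO_RL, and their sum ranged from 215 to 294 CPM over the libraries. Of 10 hippocampal excitatory markers, none was called in WT mice, and 2 were higher and 1 lower in KO_OL and in KO_RL, where their median log2 change was 0.17 and 0.38. Of 4 astrocyte markers 1 was higher in WT_OL and 1 lower in KO_OL and in KO_RL. Of 3 endothelial markers 1 was higher in WT_OL and 1 lower in KO_OL. Of 6 inhibitory neuron markers 1 was higher and 1 lower in KO_OL. Over all genes 9.5%, 23.5%, 15.7% and 23.6% were called in WT_OL, KO_OL, WT_RL and KO_RL. The part of these markers in the members' results was not tested. The 1 KO_Basal mouse with hypothalamic markers changed no call when left out: without it Shank1 was 0.53 higher in KO_OL (adjusted p = 0.0255) and 0.69 higher in KO_RL (adjusted p = 0.00695).

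Reversal learning was compared with original learning. By the study's methods reversal training took further days after the original probe test, so the move of the platform cannot be told apart from added time and swimming. No member passed in limma, in WT mice (0.261% of all genes passed) or in KO mice (0.0196% passed). At an unadjusted p under 0.05 there was 1 member in each, and voom on recovered reads called none. In WT mice it was Dlg3, at 0.35 (95% interval 0.03 to 0.66), which passed at 0.55 (adjusted p = 0.0134) without the third WT_OL mouse. In KO mice it was Shank2, at 0.20 (0.02 to 0.38), with all 3 KO_RL mice above all 3 KO_OL mice, the only member of 9 without overlap where 13.2% of all genes did not overlap. In WT mice no member was without overlap, against 11.1% of all genes. Shank1 changed by -0.21 (-0.49 to 0.06) in WT mice and 0.16 (-0.11 to 0.44) in KO mice.

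Loss of Ccny was compared within each training state. No member passed in limma in untrained mice (0.0196% of all genes passed), after original learning (0.0652%) or after reversal (0%), and with an unadjusted p under 0.05 there were 0, 1 and 0 members. Voom on recovered reads called none either. In untrained mice the largest difference was that of Dlgap1, at -0.13 (95% interval -0.38 to 0.13), and the KO mice, at 574, 633 and 635 CPM, lay below the WT mice, at 654, 716 and 645 CPM. It was the only member without overlap, where 14.7% of all genes had none. After original learning Dlg3 was at 0.39 (0.08 to 0.70; adjusted p = 0.208), a value that passed at 0.60 (adjusted p = 0.0105) without the third WT_OL mouse, and Dlgap4 was the member without overlap, at 0.10 (-0.07 to 0.28), against 16.5% of all genes. After reversal Dlgap3 at 0.23 (-0.05 to 0.50) and Shank3 at 0.13 (-0.09 to 0.35) had KO mice above WT mice, 2 of 9 members against 8.18% of all genes. All intervals at the 3 states lay within -0.48 and 0.70.

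**Figure D5:**
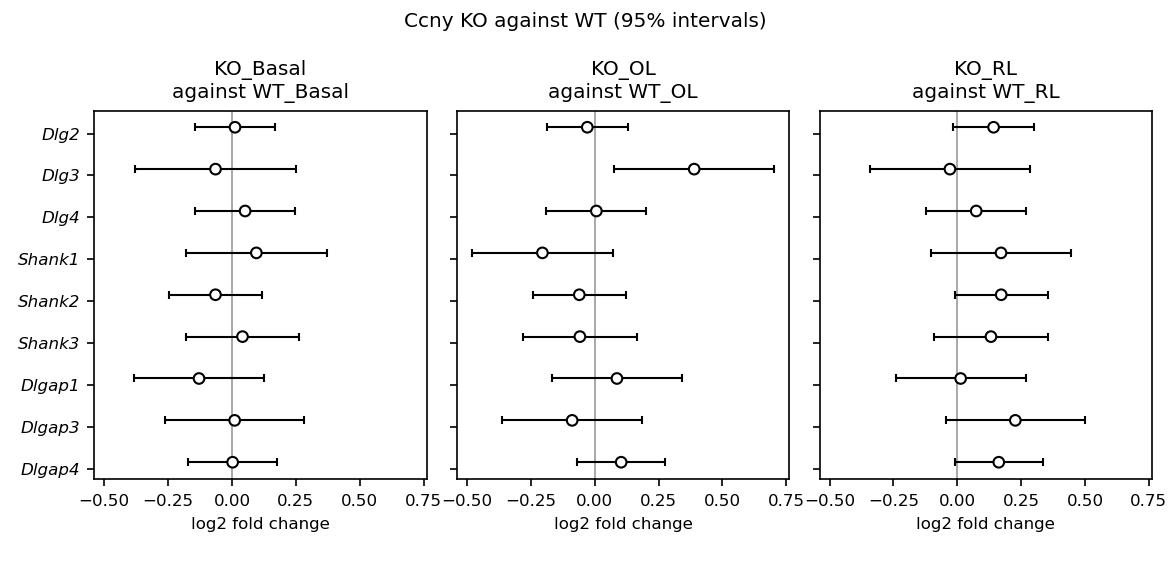
Log2 difference of KO from WT mice for the 9 members (rows) at each training state (panels), with 95% intervals; all circles are open because no adjusted p was under 0.05. The interval of Dlg3 after original learning, 0.08 to 0.70, is the only one that leaves out 0.

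The change with training was also compared between the genotypes. No member differed in limma after original learning or after original and reversal learning, where 0% of all genes passed in both, and at an unadjusted p under 0.05 there were 1 and 0 members. The 1 was Dlg3, whose change after original learning differed by 0.45 in KO from WT mice (95% interval 0.01 to 0.90; adjusted p = 0.397), and it passed at 0.66 (adjusted p = 0.0379) without the third WT_OL mouse. The change of Shank1 after original learning differed by -0.30 in KO from WT mice (-0.69 to 0.09; adjusted p = 0.454), and that of Shank2 after reversal differed by 0.24 (-0.02 to 0.49; adjusted p = 0.908). Over the mean of the 3 states no member passed, against 0.0326% of all genes, and the members' differences lay between -0.01 and 0.10.

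Of the other genes of the same families, Dlg5 passed after reversal, 0.37 higher in WT (adjusted p = 0.0156) and 0.46 higher in KO mice (adjusted p = 0.00259). Dlgap2 passed in KO mice alone, 0.32 higher after original learning (adjusted p = 0.0315) and 0.38 higher after reversal (adjusted p = 0.0124). With the GC trend removed, Dlg5 passed in KO_RL at 0.31 (adjusted p = 0.0412) and not in WT_RL at 0.21 (adjusted p = 0.219), and Dlgap2 did not pass, at 0.17 in KO_OL (adjusted p = 0.288) and 0.25 in KO_RL (adjusted p = 0.11). Dlg1 and Dlgap5 did not pass. Of 37 partners of the scaffolds, 4 were higher and 1 lower in WT_OL, 11 and 1 in KO_OL, 8 and 1 in WT_RL and 13 and 1 in KO_RL, with a median log2 change of 0.01, 0.21, 0.18 and 0.26. Over all genes 3.88%, 11.2%, 8.28% and 11.6% were called higher in these comparisons and 9.5%, 23.5%, 15.7% and 23.6% in either direction. Nlgn3, which encodes neuroligin 3, an adhesion protein held by PSD-95, was higher in all 4 comparisons, from 55.3 ± 2.9 CPM in WT_Basal to 82.5 ± 21.2 CPM in WT_OL (0.54; adjusted p = 0.0158) and 101 ± 7.7 CPM in WT_RL (0.85; adjusted p = 0.000653). In KO mice Nlgn3 went from 54.6 ± 3.0 CPM to 104 ± 7.6 CPM in KO_OL (0.92; adjusted p = 0.000177) and 103 ± 8.2 CPM in KO_RL (0.90; adjusted p = 0.000197). At 49.3% GC it lies near the middle of all genes, and with the GC trend removed it was 0.54, 0.86, 0.79 and 0.85 higher in WT_OL, KO_OL, WT_RL and KO_RL. Values with the length trend removed as well, a step that ended most of the members' calls, are not given for the partner genes.

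Cit encodes citron, which binds PSD-95. Cit was higher in all 4 comparisons, by 0.83 and 0.53 after original learning in WT and KO mice, and 0.64 and 0.58 after reversal. With the GC trend removed it passed in WT_OL alone, at 0.72 (adjusted p = 0.0212), with adjusted p between 0.0508 and 0.0963 in the other 3. Begain, which binds PSD-95, passed in WT_OL alone (0.42; adjusted p = 0.0467), and Sipa1l3 was higher in KO_OL by 0.59, in WT_RL by 0.64 and in KO_RL by 0.79. Without the GC trend Begain was at 0.18 (adjusted p = 0.342) and Sipa1l3 passed in KO_RL alone, at 0.63 (adjusted p = 0.0268), with adjusted p of 0.13 in KO_OL and 0.127 in WT_RL. The synaptic GTPase regulators Iqsec1 and Sipa1l1 rose as well, Iqsec1 by 0.24 and 0.50 after original learning and 0.41 and 0.52 after reversal in WT and KO mice and Sipa1l1 in KO_OL by 0.37, in WT_RL by 0.29 and in KO_RL by 0.45. Their GC-corrected values did not pass for Iqsec1 in WT_OL, at 0.18 (adjusted p = 0.179), or Sipa1l1 in WT_RL, at 0.17 (adjusted p = 0.138), and passed in the others. Lrrtm2, a synaptic adhesion protein that binds PSD-95, was the partner that was lower in each of the 4, by -0.60, -0.50, -0.57 and -0.49, and with the GC trend removed (its transcript is 38.4% GC) it was -0.26, -0.15, -0.27 and -0.19, past the threshold in WT_RL alone (adjusted p = 0.049).

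The genes with a pattern most like each member were taken by Pearson r of log2 values over the 18 libraries among 6459 genes with a mean log2 value of 5 or more. Shank1 was most like Zmiz2 (r = 0.97), with Ttbk1 also among its 3 most alike genes (0.96), and Shank2 was most like Ttbk1 (0.94) and Shank1 (0.94). Dlgap3 and Shank3 shared Map3k10 among their 3 most alike genes, at 0.97 and 0.91. Dlg3 was most like Dpp6 (0.98), Mgat3 (0.97) and the AMPA receptor gene Gria1 (0.97), and Dlgap1 like Anks1b (0.94), while the highest r of Dlg2 was 0.84, with Adrbk2. Between members, Dlg3 and Dlgap1 had an r of 0.68 with each other, and Dlg3 had an r of 0.01 with Shank1 and -0.16 with Dlgap3. These r values describe libraries that share trends in reads on listed genes and in GC content.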

How the data were processed

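RNA of 18 hippocampi was sequenced, 3 mice in each of 6 groups taken from the labels. The authors mapped reads to mm10 with STAR 2.5.1, counted them per gene and scaled them with edgeR 3.12.1, and the deposited table holds log2 values of TMM-normalized CPM for 15329 genes. The study's methods give a floor of 1, and the deposited values step as log2(CPM + 1), so CPM here is 2 to the value, less 1. Steps between low values gave whole reads in 100% of values within 0.05 of a read, and so the number of reads on listed genes. Groups were fitted with limma 3.58.1 (R 4.3.3; group means, moderated variance with a trend) on the log2 values, adjusted by Benjamini-Hochberg over all genes, so fold changes are on the log2(CPM + 1) scale. The labels give a mouse as the source of each library, with no litter or day, and p-values measure the spread between these samples. An exact permutation test of 3 against 3 mice cannot go below p = 0.1 and was not used. GC content and length came from the longest GENCODE vM21 transcript, matched by symbol for 99.3% of genes, and trends were removed per library by lowess. The members and gene lists were chosen with earlier results of these data known, and the text names all members, the 4 other family genes, and per comparison up to 3 partner genes with the largest rise and 3 with the largest fall among those called without overlap, with Nlgn2, Iqsec1 and Sipa1l1 added after their values were seen. Some genes are not reported here by name.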

Additional observations from a re-analysis of the deposited data

How the results depend on the processing

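Each member in each comparison, 108 results of which 14 were called, was recomputed under alternatives of scale, filter, normalization, variance, library weight and left-out mouse, 2367 values in all. No called value changed sign, 2312 values kept their side of the threshold and 17 gained a call. The 14 called results made up 266 of the recomputed values, and 38 of these 266 lost the call. Among values that kept their side, 138 changed sign, with neither the reported nor the recomputed value called. The calls for WT_OL, KO_OL, WT_RL and KO_RL against untrained mice, 3, 4, 3 and 4 as reported, were 1, 2, 1 and 4 after GC correction and 1, 0, 0 and 0 after GC and length correction. Of all 15220 genes in these fits, 377, 2534, 1188 and 2855 were called after GC correction and 612, 2264, 1331 and 1980 after both. With only the compared groups in the fit the members' counts were 0, 5, 2 and 4, where 74, 5289, 1523 and 4426 of all 15329 genes were called. The cause was not tested. With libraries weighted by limma's gene-by-gene method, chosen after the default weights did not converge, WT_OL had 5 calls, KO_RL 7, KO_OL against WT_OL 1 and the genotype difference in change after original learning 1. The weighted fit called 4872 of all 15329 genes in WT_OL and 6990 in KO_RL. Without the third WT_OL mouse, Dlg3 was the 1 call in WT_RL against WT_OL, in KO_OL against WT_OL and in that difference in change, against 0 to 1 over all left-out mice. With replicate number as a block the counts stayed at 3, 4, 3 and 4, and at 1, 2, 1 and 4 with GC correction. The labels do not say what same-numbered libraries share. Such libraries had correlations between -0.68 and 0.73, and 7 of 18 libraries were most like one of their own number. These values cannot settle whether the numbers mark a batch. Count models (edgeR, DESeq2) were not run because the table holds log2 values. Voom on the recovered reads was added in their place after the data were seen. Standard errors of the members' learning changes, 0.07 to 0.15 on the log2 scale with 3 mice a group, limit which changes could pass.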

Other observations

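Scaffolds on the presynaptic side were measured in the same libraries. Of 14 active zone scaffold genes, 2 were higher and 1 lower in WT_OL, 3 and 1 in KO_OL, 1 and 1 in WT_RL and 4 and 1 in KO_RL, where 9.5%, 23.5%, 15.7% and 23.6% of all genes were called in either direction. Bsn, which encodes bassoon, passed in KO mice, going from 368 ± 7.9 CPM to 570 ± 16.3 CPM in KO_OL (log2 change 0.63, adjusted p = 0.0152 in limma) and 640 ± 65.0 CPM in KO_RL (0.79, adjusted p = 0.00399). With the GC trend removed its values were 0.45 (adjusted p = 0.101) and 0.63 (adjusted p = 0.0268). Lin7c, which encodes a small PDZ adaptor found on both sides of the synapse, was the gene that was lower in all 4 comparisons, by -0.62, -0.40, -0.46 and -0.33 in WT_OL, KO_OL, WT_RL and KO_RL. At 37.3% GC, its values with the GC trend removed were -0.26, 0.00, -0.11 and 0.02, none of them past the threshold.

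Of 4 listed genes of the inhibitory postsynaptic scaffold, none was called in WT_OL or WT_RL. In KO_OL and in KO_RL 1 of 4 was called, where 23.5% and 23.6% of all genes were called. It was Nlgn2, the neuroligin of inhibitory synapses, 0.52 higher in KO_OL (adjusted p = 0.00772 in limma) and 0.48 higher in KO_RL (adjusted p = 0.0114). After GC correction its values were 0.33 and 0.31 (adjusted p = 0.106 and 0.116). A difference from WT mice was not called for any gene of these lists.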
